A study of Homo sapiens with 26 samples.

Results

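Estrogen receptor (ER) binding sites were compared between 2 deposited lists, both from cells given estradiol and a progestin together. The first came from T47D cells and the second from T47D cells that the labels call PR-deficient, PR being the progesterone receptor. The members are all sites of both lists, 24883 of the 87206 sites in the 10 lists of the series. Of these, 19220 were listed in T47D and 5663 in PR-deficient cells. T47D is a human breast cancer cell line that the labels describe as ER+/PR+. How its PR-deficient counterpart was made, and whether it is a single clone, is not stated in the labels. PR was not measured in the PR-deficient cells in any list used here, so the label could not be checked. Both lines were kept for 48 h in charcoal-stripped serum, which takes steroids away, and then received 10 nM estradiol (E2), 10 nM R5020 (a synthetic progestin that activates PR) or 10 nM of each for 45 min. ER was immunoprecipitated with the antibody HC-20 and PR with the in-house antibody KD68. Each list stands for 1 library after subtraction of a vehicle library of its own line and antibody, so the groups have no replicates and the lists of 1 line and antibody have that vehicle library in common. A difference between the lists therefore has no replicate check, and loss of PR cannot be told apart from any other difference between the lines, their vehicle libraries or the 2 immunoprecipitations. Intervals are exact Clopper-Pearson 95% intervals over sites. They cover counting error only, and neighbouring sites of a library are not independent.

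ER and PR are ligand-activated transcription factors of the nuclear receptor family. In luminal breast cancer cells, ER bound to estradiol occupies mostly distal enhancers that carry estrogen response elements, often in chromatin opened by the pioneer factors FOXA1 and GATA3. PR bound to a progestin recognises the hormone response element that it shares with the glucocorticoid and androgen receptors. PR is itself the product of an estrogen target gene, and activated PR is known to associate with ER and to move ER to other sites. Comparing ER sites with both hormones in cells with and without PR asks how far the ER sites of the doubly treated cells go with PR. Sequential immunoprecipitation (reChIP), first for ER and then for PR, is meant to list sites where both receptors are recovered from the same chromatin.

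Few ER sites were common to the lines under both hormones. Sharing was set as an overlap of 1 bp or more between listed sites. By this measure 916 of 19220 T47D sites were shared, 4.77% of that list (interval 4.47 to 5.08%). In PR-deficient cells 840 of 5663 sites were shared, 14.8% of that list (13.9 to 15.8%). With lists of equal length the shares were 6.04% in T47D and 5.84% in PR-deficient cells. With centres within 200 bp they were 2.55% and 8.58%, and with an overlap of 50% of both sites 0.604% and 2.05%. The other 18304 T47D sites and 4823 PR-deficient sites were listed in 1 line only. The shared sequence came to 2.53% of all base pairs covered by either list. With E2 alone the lists of the same lines overlapped more widely, with 54.9% of the 4014 T47D ER sites and 29.0% of the 7742 PR-deficient ER sites shared. With R5020 alone the shares were 6.78% (T47D) and 3.97% (PR-deficient). The E2 pair therefore had larger shares than the pair with both hormones, in both directions.

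The treatments were also compared among sites of equal rank. The score that the authors gave each site was used only to order sites within a list, since its unit is not stated. Among the 1000 highest-scoring sites of each list, 60 T47D sites with both hormones met a PR-deficient site of the same rank class, 6% (4.61 to 7.66%). With E2 the number was 352, 35.2% (32.2 to 38.3%). With R5020 it was 51, 5.1% (3.82 to 6.65%). At the 100 highest-scoring sites the numbers were 2 with both hormones, 17 with E2 and 6 with R5020. Between lists of equal length, E2 alone thus gave the larger overlap at each length tried, from 100 to 2000 sites. Against the whole T47D list the order was the other way at the top, since 38 of the 100 highest-scoring PR-deficient sites were shared with both hormones and 25 with E2. Those whole T47D lists differ in length, with 19220 sites for both hormones and 4014 for E2. At the top 1000 PR-deficient sites the share was 31.4% with both hormones and 49.6% with E2. Of the 100 highest-scoring T47D sites, 22 met the whole PR-deficient list with both hormones and 92 with E2. The lists also differed in kind, as described below. T47D sites had a median length of 209 bp with both hormones and 1171 bp with E2. Of the 100 highest-scoring T47D sites with both hormones, 47 lay near long stretches without sites, and 0 of the PR-deficient ones. How far these differences set the overlaps was not tested.

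The lists differed in form as well as in number. T47D sites were narrow, with a median length of 209 bp (quartiles 166 and 272 bp), and covered 4.77 Mb in all. PR-deficient sites had a median of 1329 bp (972.5 and 1879 bp) and covered 8.90 Mb from fewer sites. In T47D, ER sites were also narrow with R5020 alone (median 248 bp) and wide with E2 alone (1171 bp). In PR-deficient cells they were narrow with R5020 (236 bp) and wide with E2 (1076.5 bp). Among the ER lists, that from T47D with both hormones thus had the narrow form of the R5020 lists. That from PR-deficient cells had the wide form of the E2 lists. The narrow form was not particular to R5020, since the PR list of T47D given E2 alone had a median of 249 bp. Medians over the PR and reChIP lists ran from 149 to 292 bp. The lowest score kept also went with width, counted in whole steps of each list's own score. It was 3 to 9 steps in the narrow lists and 16 to 26 in the wide ones. Whether the difference in width comes from the chromatin or from how sites were called was not tested.

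Because of this difference in width, overlapping sites were mostly nested. The shared sites formed 917 pairs, and in 851 of them (92.8%, interval 90.9 to 94.4%) the T47D site lay wholly inside the PR-deficient site. The PR-deficient site was a median of 4.6 times as long as its partner. The T47D sites tended to lie centrally, with their centre in the middle 50% of the PR-deficient site in 721 pairs (78.6%, 75.8 to 81.2%). The median distance between centres was 178.5 bp (quartiles 68 and 416.5 bp). Most shared PR-deficient sites, 773, held 1 T47D site, 58 held 2, 8 held 3 and 1 held 4. Over the 917 pairs the ranks of partners were weakly related (Spearman 0.24) and their lengths were not (-0.07). Pairs share neither library nor scale, but neighbouring pairs are not independent, so no p is given.

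PR-deficient sites were shared far more often when they scored high. In the highest-scoring quintile 349 of 1133 sites were shared, 30.8% (28.1 to 33.6%). The share was 15.2% in the next quintile, 10.6% in the middle one, and 8.74% and 8.83% (7.25 to 10.6%) in the lowest pair. Among the 500 highest-scoring PR-deficient sites 37.2% (33.0 to 41.6%) were shared. Among the 100 highest 38 were shared, and among the 50 highest 13 (26%, 14.6 to 40.3%). Sharing thus went with score over the quintiles and was larger still in the top 500, with no further rise seen above that. Most of the strongest 100 sites had no T47D partner.

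In T47D the score separated shared from unshared sites much less. The highest-scoring quintile was shared at 6.82% (6.04 to 7.66%) and the lowest at 4.34% (3.72 to 5.04%), with 4.42%, 4.29% and 3.95% between them. The median rank of shared T47D sites, 9360 of 19220, was close to that of unshared ones, 9634.5. At the very top the share was larger, with 22 of the 100 and 15 of the 50 highest-scoring sites shared.

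**Figure D1:**
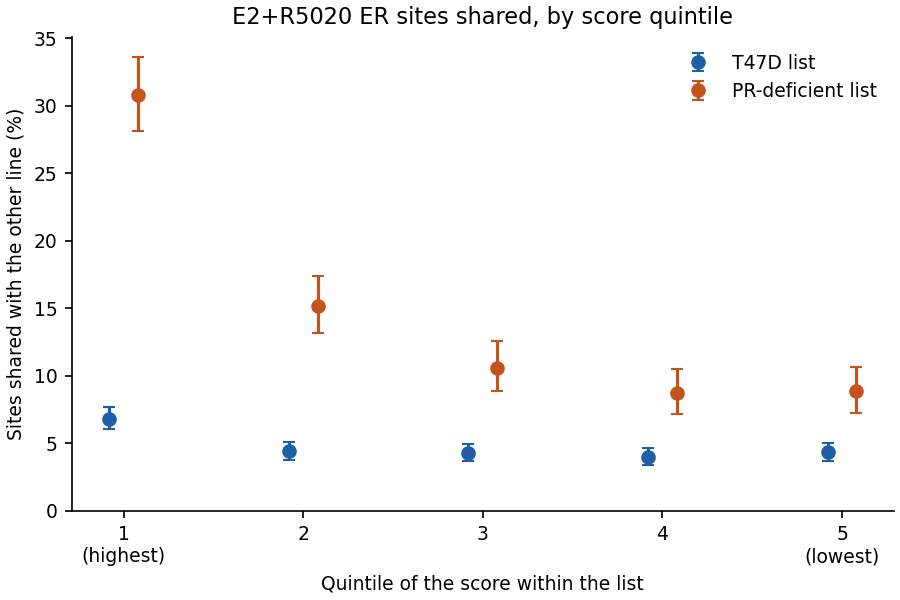
Share of sites that overlap a site of the other line (y axis, percent) by quintile of the authors' score within each list (x axis, highest first), for the T47D list (blue) and the PR-deficient list (orange). Points are shares and bars exact 95% intervals over sites. The PR-deficient share is 30.8% in the highest quintile and 8.83% in the lowest, while the T47D shares lie between 3.95% and 6.82%.

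In T47D the length of a site, more than its score, went with sharing. Of the 3289 sites up to 150 bp, 23 were shared (0.699%, interval 0.444 to 1.05%). The share was 7.55% over 300 and up to 400 bp, 17.0% over 400 and up to 500 bp, and 21.9% over 500 and up to 700 bp (19.0 to 25.1%). It was lower again, 13.5% (10.4 to 17.0%), in the 446 longest sites. The 1984 T47D sites over 400 bp made up 10.3% of the list and held 357 of its 916 shared sites. The 8641 sites up to 200 bp made up 45.0% and held 148. A longer site also has more room to overlap by 1 bp, and that part of the relation was not tested.

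Within a length class the relation of score to sharing differed between classes. Among T47D sites up to 200 bp the share was 3.01% at the lowest scores (4 to 6 steps of the score) and 1.08% at the highest (13 to 78 steps). Among those over 200 and up to 400 bp it was 5.81% and 0.984%. Among sites over 400 bp it was 17.1% and 22.5%, with intervals that overlap (10.8 to 25.2% and 19.2 to 26.0%). In both shorter classes the high-scoring sites were thus shared less often than the low-scoring ones.

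In PR-deficient cells the relation to length was smaller. Sites up to 800 bp were shared at 9.40% (7.27 to 11.9%), those over 1800 and up to 2500 bp at 19.3% and the 143 over 4000 bp at 23.8% (17.1 to 31.6%). Longer PR-deficient sites were less often in the E2 list of T47D, which held 43.8% of those up to 800 bp and 4.20% of those over 4000 bp. The E2 list of PR-deficient cells held 78.3% and 84.6% of them. The list that R5020 gave in PR-deficient cells held 9.71% and 60.8%.

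**Figure D2:**
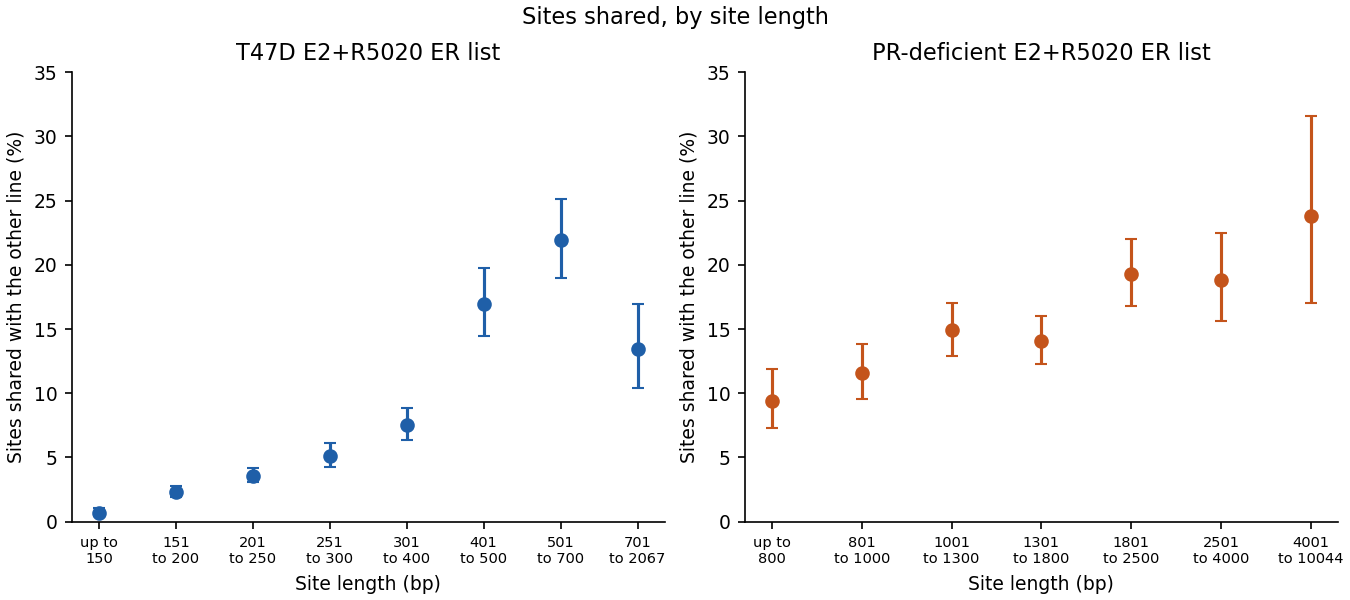
Share of sites that overlap a site of the other line (y axis, percent) by site length (x axis, bp), in the T47D list (left) and the PR-deficient list (right). Points are shares and bars exact 95% intervals over sites. T47D shares go from 0.699% in the shortest class to 21.9% in the class up to 700 bp, and PR-deficient shares from 9.40% to 23.8%.

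Many unshared T47D sites stood where the PR-deficient list had almost none. Within 2 Mb of the stretches of at least 3 Mb that hold no site of any list, there were 2821 T47D sites (14.7%) and 125 PR-deficient sites (2.21%). Such stretches fall mostly at centromeres, heterochromatin and assembly gaps in hg19, as general background. T47D sites there were shared at 0.638% (0.379 to 1.01%), against 5.48% (5.13 to 5.84%) elsewhere. Of the 100 highest-scoring T47D sites 47 lay there, and of the PR-deficient ones 0, which allows a share of up to 3% by a limit of 3 counts and 3.62% by the exact interval. Chromosome Y held 336 T47D sites (1.75% of the list), 1 of them shared, and 2 PR-deficient sites (0.0353%). Of the T47D sites on Y, 80 were also in the reChIP list and 26 in the R5020 ER list of T47D. Whether the sites on chromosome Y or next to the stretches stand for ER binding was not tested. T47D sites also lay close to each other, since 24.8% had a neighbour in the list within 0.5 kb, and 2.87% of those were shared against 6.85% of sites with the nearest neighbour at 5 to 20 kb. Without chromosome Y and the sites next to such stretches the T47D share was 5.49% in place of 4.77%, and with sites merged within 500 bp it was 5.18%.

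Most unshared sites of PR-deficient cells had a T47D site within 100 kb, and few had one close by. Of the 4823, 12.1% lay within 5 kb of a T47D site and 79.4% within 100 kb. Of the 18304 unshared T47D sites, 3.60% and 33.1% lay that close to a PR-deficient site. Over all sites of each list, shared ones included, 82.4% of PR-deficient and 36.3% of T47D sites had a site of the other list within 100 kb. The T47D list is 3.39 times as long. How far the number of sites in each list sets these distances was not tested, and no random positions were drawn for comparison. Allowing gaps of up to 1 kb moved the shared fractions to 5.50% in T47D and 17.2% in PR-deficient cells.

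Sharing differed between chromosomes. In T47D it was highest on chromosome 17, with 86 of 763 sites (11.3%, interval 9.12 to 13.7%), then on 22 (9.74%) and 19 (9.47%). The lowest autosomal share was 2.58% on chromosome 5 (1.76 to 3.64%), and on X it was 1.36% (0.653 to 2.48%). The number of T47D sites per PR-deficient site was 1.93 on chromosome 17, 8.09 on chromosome 4 and 9.45 on X. Over the 22 autosomes this ratio and the T47D share had a Spearman correlation of -0.85, given as a description because the number of T47D sites enters both. Leaving out chromosome Y, where 1 of 2 sites was shared, PR-deficient shares ran from 10.7% on chromosome 11 to 24.8% on chromosome 22, with intervals that overlap between most chromosomes. Gains and losses of chromosomes in these lines were not measured.

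**Figure D3:**
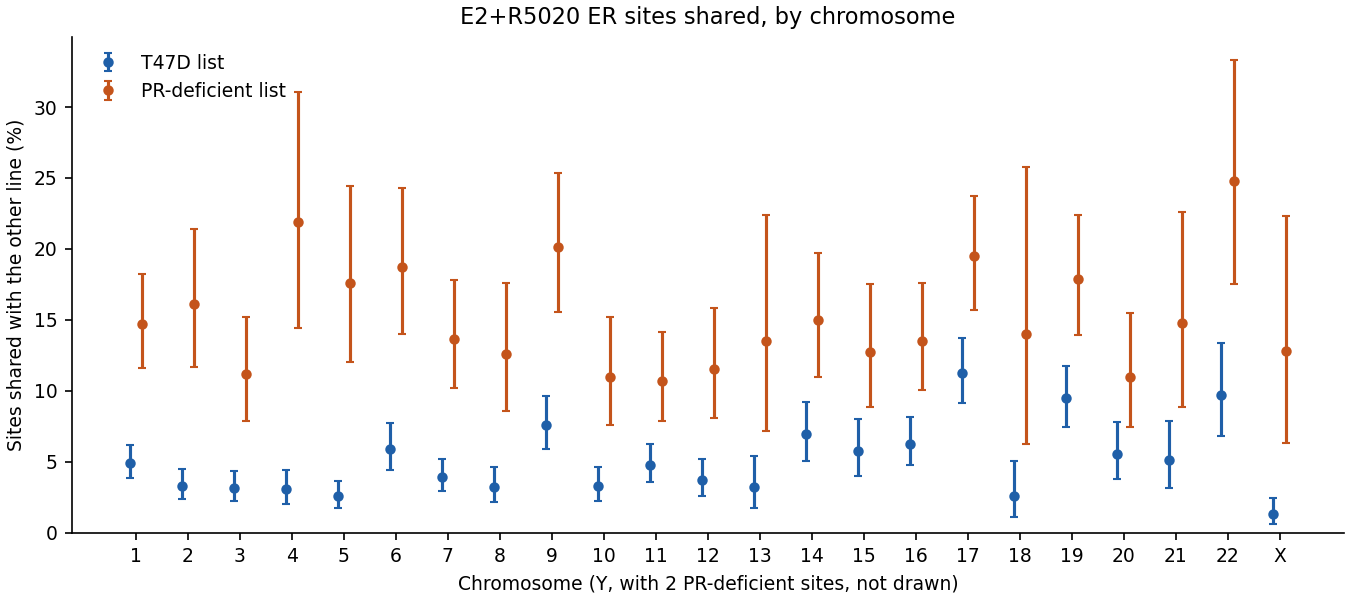
Share of sites that overlap a site of the other line (y axis, percent) on each chromosome (x axis), for the T47D list (blue) and the PR-deficient list (orange). Points are shares and bars exact 95% intervals over sites. T47D shares are highest on chromosomes 17 (11.3%), 22 (9.74%) and 19 (9.47%), and PR-deficient shares lie between 10.7% and 24.8%. Chromosome Y is not drawn.

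The other 8 lists, which the split into shared and unshared sites did not use, were then read for each class. Of the shared T47D sites 84.3% (81.8 to 86.6%) lay in the ER list of PR-deficient cells with E2 alone, against 1.76% of the sites in T47D only and 5.7% of the whole T47D list. The ER list of T47D with E2 alone held 44.7% of the shared and 2.46% of the unshared T47D sites (4.47% of all). Shared sites were thus largely sites of the E2 list of PR-deficient cells. Much of this follows from how sharing was set, since each shared T47D site overlaps a PR-deficient site with both hormones. That E2 list held 75.4% of all PR-deficient sites with both hormones, which is the nearer value to set beside the 84.3%. The ER list of T47D with R5020 held 13.9% of the shared and 4.54% of the unshared sites (4.98% of all), and that of PR-deficient cells with R5020 held 6.55% and 1.96% (2.17% of all). Overlap between ER lists of 1 line cannot be told apart from what their common vehicle library leaves in each.

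PR was listed at more of the shared than of the unshared T47D sites, mainly under both hormones. The PR list of T47D with both hormones held 27.8% of the shared and 4.03% of the unshared T47D sites (5.16% of all). With R5020 alone the PR list held 4.15% and 1.25% (1.39% of all), and with E2 alone 2.62% and 1.57% (1.62% of all). The last difference was 0.04 percentage points, in place of 1.05, when the lowest score kept was raised by 1 step. The reChIP list is meant to hold sites with ER and PR on the same chromatin. It held 51.5% (48.2 to 54.8%) of the shared T47D sites and 8.22% of the unshared ones (10.3% of all). Sites where ER was also listed in PR-deficient cells were thus more often in the T47D reChIP list than sites of T47D only. Of the 10 lists, the reChIP list also had the largest share of sites on chromosome Y, 298 sites or 3.02%. Whether ER and PR were together at its sites was not tested.

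Among PR-deficient sites the contrast was of the same direction in 7 of the 8 lists. The ER list of T47D with E2 held 45.2% (41.8 to 48.7%) of the shared and 21.4% (20.3 to 22.6%) of the unshared PR-deficient sites, and 25% of all of them. The ER list of the same PR-deficient cells with E2 held 86.7% and 73.4% (75.4% of all). The reChIP list of T47D held 56.9% and 13.9% (20.3% of all), and the PR list of T47D with both hormones 31.3% and 8.02% (11.5% of all). Smaller shares were found in the ER list of T47D with R5020, 17.0% and 4.46% (6.32% of all). The PR list with E2 held 5.95% and 3.82% (4.13% of all), a difference of 2.14 percentage points that was 0.10 with the lowest score raised by 1 step, and the PR list with R5020 6.31% and 2.70% (3.23% of all). The exception was the ER list of PR-deficient cells with R5020, which held 14.4% (12.1 to 17.0%) of the shared and 27.0% (25.7 to 28.3%) of the unshared PR-deficient sites (25.1% of all).

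**Figure D4:**
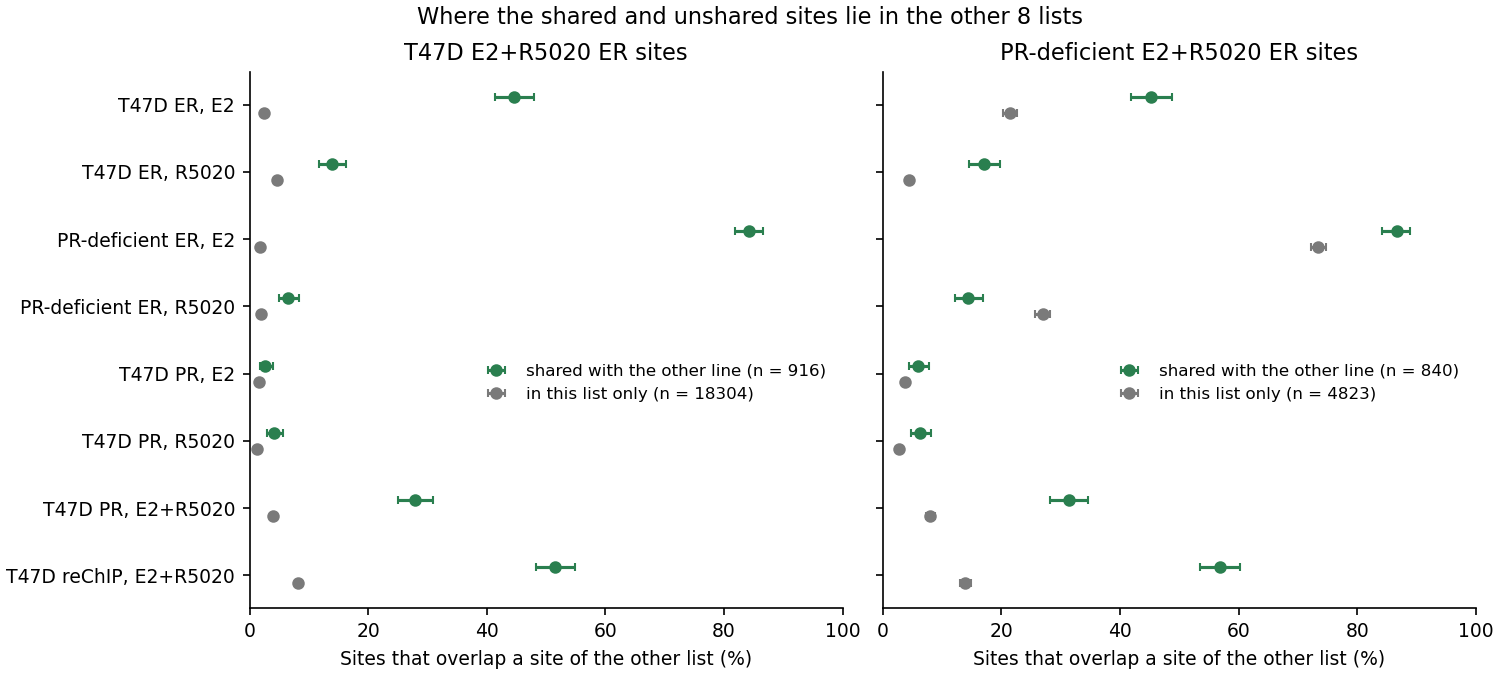
Share of sites found in each of the other 8 lists (x axis, percent) for shared sites (green) and sites of 1 line only (grey), in the T47D list (left) and the PR-deficient list (right). Points are shares and bars exact 95% intervals over sites. Shared sites have the larger share in all 8 lists on the left and in 7 on the right, the exception being ER in PR-deficient cells with R5020 (14.4% against 27.0%).

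Most sites in T47D only were listed nowhere else. Of the 18304, 15221 (83.2%, interval 82.6 to 83.7%) overlapped no site of the other 8 lists, and 6.01% were in at least 2 of them. Of the 4823 sites in PR-deficient cells only, 13.4% were in no other list and 50.9% in at least 2. Shared sites recurred most, with 72.7% (T47D) and 80.7% (PR-deficient) in at least 2 further lists. Among T47D-only sites up to 200 bp, 85.9% were in no other list. Among those over 400 bp, 70.4% (68.2 to 72.6%) were in no other list and 23.3% were in the reChIP list. Among shared T47D sites over 400 bp, 1.68% were in no other list, 95.2% were ER sites of PR-deficient cells with E2 and 79.3% were in the reChIP list.

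High-scoring sites of PR-deficient cells were nearly all sites of E2 alone, shared or not. In the highest-scoring quintile 349 of 349 shared and 777 of 784 unshared sites (99.1%) were in the E2 list of the same cells. Of those 784 unshared sites 34.7% were in the reChIP list of T47D, 36.9% in its E2 ER list and 16.6% in its PR list with both hormones. In the lowest-scoring quintile the unshared sites were in the E2 list of their own line at 49.4%, in the reChIP list at 8.24% and in the E2 ER list of T47D at 13.9%. A site missing from the T47D ER list with both hormones could thus be listed there by reChIP, a second immunoprecipitation that begins with the same ER antibody.

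The lists with both hormones held different shares of the E2 sites of their own line. In PR-deficient cells 4296 of 7742 E2 sites (55.5%, interval 54.4 to 56.6%) reappeared under both hormones. In T47D 781 of 4014 did (19.5%, 18.2 to 20.7%). To compare the lines on the same sites, the 2204 T47D E2 sites that overlapped an E2 site of PR-deficient cells were followed. With both hormones, 375 (17.0%) were in both lists, 984 (44.6%) in the PR-deficient list alone, 162 (7.35%) in the T47D list alone and 683 (31.0%) in neither. Of these common E2 sites, 61.7% (59.6 to 63.7%) were therefore listed in PR-deficient cells and 24.4% (22.6 to 26.2%) in T47D. In the highest-scoring quintile by T47D E2 score the shares were 85.7% in PR-deficient cells and 60.8% in T47D, and in the lowest 44.8% and 7.05%. The order of the lines was the same at both ends, with 1 library behind each list. The list with both hormones was also unlike in form, with a median of 209 bp over 4.77 Mb in T47D and 1329 bp over 8.90 Mb in PR-deficient cells. How far this sets the shares was not tested.

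Viewed from the T47D sites with both hormones, sharing went with presence in the E2 list of PR-deficient cells. That list holds 75.4% of the PR-deficient sites with both hormones and has the same vehicle library subtracted. T47D sites present in the E2 lists of both lines numbered 577 and were shared at 69.3% (65.4 to 73.1%). The 518 present only in the E2 list of PR-deficient cells were shared at 71.8% (67.7 to 75.7%). The 282 present only in the E2 list of T47D were shared at 3.19% (1.47 to 5.97%). The remaining 17843 T47D sites, 92.8% of the list, were in neither E2 list and were shared at 0.757%. PR-deficient sites were shared at 27.1% when in the E2 lists of both lines, at 12.3% when in their own E2 list alone and at 7.68% when in neither. The 40 in the E2 list of T47D alone were shared at 20% (9.05 to 35.6%).

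The strongest shared sites were each in 2 to 7 of the other 8 lists. They were ordered by T47D score and then by PR-deficient score, and 10 sites were taken each way. The site at chr7:157413322-157414299 (hg19, as are all positions) ranked 4 in T47D, and its partner at chr7:157410814-157414694 ranked 16 in PR-deficient cells. It was the shared site with the most further lists, 7 of 8, with ranks of 14 in the E2 list of PR-deficient cells, 21 in ER of T47D with R5020, 25 in PR with both hormones and 38 in the reChIP list. The shared site at chr10:79631764-79632774 ranked 2 in T47D and 1099 in PR-deficient cells. It also ranked 7 in ER of T47D with R5020 and 14 in PR with both hormones, and was not in the E2 list of T47D. The site at chr19:34370524-34371370 ranked 29 in T47D and 22 in PR-deficient cells, and its overlapping site was the highest-scoring of the T47D E2 list. It was in no PR list. These 3 sites show that ranks of partners could be close or far apart.

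A high score in PR-deficient cells did not carry over to T47D at every shared site. Outside chromosome 8, which was left out of the named sites, the shared site with the highest PR-deficient score, chr16:85335618-85341487, ranked 11 there, and its T47D partner of 721 bp ranked 4695. The site at chr9:33220713-33222684 ranked 17, and its T47D partner 14159 of 19220. All 10 shared sites of highest PR-deficient score were in the E2 list of PR-deficient cells, 9 in the reChIP list, 7 in PR with both hormones and 3 in the E2 list of T47D. Of the 10 of highest T47D score, the counts in those lists were 10, 9, 4 and 5. The shares over the highest-scoring quintile of shared PR-deficient sites were 100%, 74.2%, 42.4% and 57.6%. For shared T47D sites of the highest quintile they were 93.1%, 81.3%, 54.6% and 56.5%.

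The strongest sites of PR-deficient cells only were all listed by reChIP in T47D. The 3 highest-scoring sites of the whole PR-deficient list, chr17:55975304-55978101, chr17:38476314-38479452 and chr17:49020988-49022899, were all unshared. They ranked 4, 1 and 3 in the E2 list of PR-deficient cells and 559, 259 and 295 in the reChIP list. Their distances to the nearest T47D ER site with both hormones were 0.586, 16.1 and 2.71 kb. All 10 such sites were in the E2 list of PR-deficient cells and in the reChIP list, 7 in PR with both hormones and 6 in ER of PR-deficient cells with R5020. In the highest-scoring quintile of unshared PR-deficient sites the shares in these 4 lists were 99.1%, 34.7%, 16.6% and 19.8%. The 10 sites were 1417 to 6260 bp long, against a median of 1464 bp in that quintile. None of the 10 was in the ER lists of T47D with E2 or with R5020, which held 36.9% and 5.23% of that quintile.

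The strongest sites of T47D only were of mixed kinds. The highest-scoring T47D site, chr3:127022770-127023798, had no PR-deficient site within 94.7 kb. It ranked 1 in ER of T47D with R5020, 1 in PR with both hormones, 7 in the reChIP list and 12 in PR with R5020, and was in no E2 list. This site of 1029 bp was thus listed wherever R5020 was given to cells with PR, and in none of the 3 lists of PR-deficient cells. The site at chr11:120507450-120508422 was in 6 other lists, with rank 2 in ER of T47D with R5020. In contrast, 5 of the 10 lay next to a stretch without sites, 4 of them on chromosome Y and 1 at chr1:121468039-121468238, each between 160 and 236 bp long. A further 2, chr18:28070535-28070919 and chr10:104397011-104397508, were in no other list. Of the 10, 7 were in ER of T47D with R5020, 5 in the reChIP list and 1 in the E2 list of each line. Over the highest-scoring quintile of T47D-only sites the shares were 12.9% and 15.0%, with 2.79% in the E2 list of T47D and 1.73% in that of PR-deficient cells. Most of the 7 sites in the R5020 ER list lay next to a stretch without sites. They were chr1:121468039-121468238 and sites on chromosome Y.

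**Figure D5:**
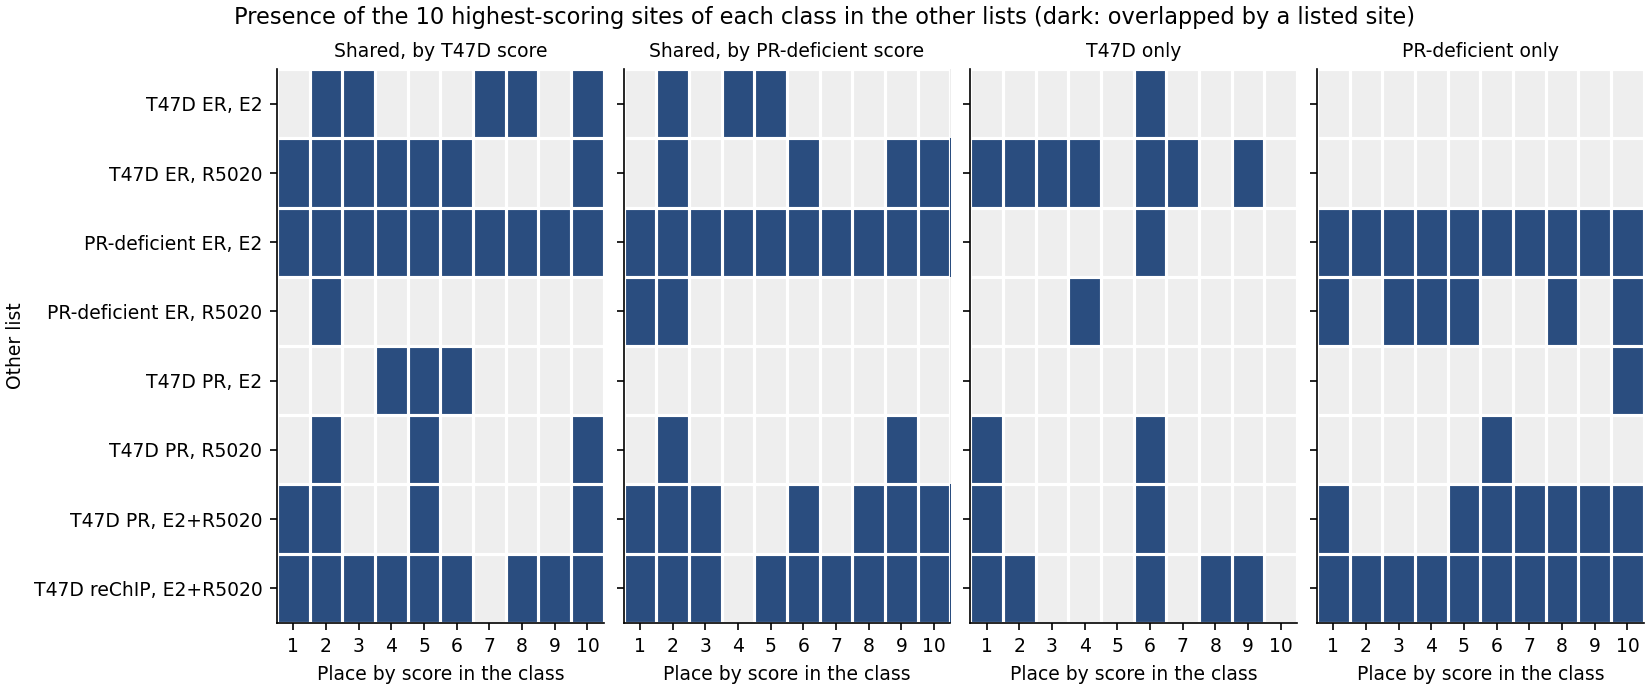
Presence (dark) or absence (light) of the 10 highest-scoring sites of each class (columns, in order of score) in the other 8 lists (rows), where presence is an overlap of at least 1 bp. All 10 sites in PR-deficient cells only are in the E2 ER list of those cells and in the T47D reChIP list. These lists hold 99.1% and 34.7% of the highest-scoring quintile of that class. Of the 10 in T47D only, 7 are in the R5020 ER list of T47D, which holds 12.9% of the highest-scoring quintile of that class. Most of these 7 lie next to a long stretch without sites of any list.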

How the data were processed

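Binding sites were measured by ChIP-seq in 26 samples, each a group of its own from its title, and 10 of them have a list of called sites. The submitters' processing notes name Bowtie2, MACS and hg19, with versions and settings not given in the sources used here. Vehicle libraries, and for reChIP also an IgG control, were subtracted per the labels. The deposited lists give chromosome, start, end, length and a score per site. The score is the authors' own, of unknown unit, in whole steps (within 0.02) that differ between lists, and only ranks sites within a list. Read depth is unknown.

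Tools were Python 3.11.15, pandas 2.3.3, NumPy 2.4.6, SciPy 1.17.1 (intervals) and matplotlib 3.10.9 (plots). The overlap code was tested on simulated lists. No p-value was computed, since each group holds 1 library. Ties in score were ordered by length and then position. Named sites come from the 10 of highest score in each of 4 classes, leaving out chromosome 8, and the text prints some of them. The members, classes and settings were chosen with earlier results of these data known. Other settings were stricter and looser overlap, sites of 200 bp, fewer sites, equal list lengths and left-out chromosomes. Merging within 500 bp and T47D sites over 400 bp were added after seeing the data. Planned searches for 6 motifs and 4 gene lists were not run, because no hg19 sequence or gene annotation was used here. Sites are therefore given by position, without genes or sequences.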

Additional observations from a re-analysis of the deposited data

Results flagged for a closer look

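The ER lists of the lines moved in opposite ways between E2 and both hormones. In T47D the list with both hormones held 15206 more sites than that with E2 (19220 against 4014). In PR-deficient cells the difference was -2079 sites (5663 against 7742). The median site length moved the other way, with a difference of -962 bp in T47D (209 against 1171 bp) and of 252.5 bp in PR-deficient cells (1329 against 1076.5 bp). These 4 values were picked out because the lines had opposite signs. The difference between the lines was not tested, since each value rests on 1 library per treatment and line and the read depth is unknown.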

How the results depend on the processing

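No paired analysis was possible because no group has a second library. The shared fractions, 4.77% of T47D and 14.8% of PR-deficient sites, were 0.604% and 2.05% when 50% of both sites had to overlap, 2.55% and 8.58% with centres within 200 bp, and 2.55% and 8.56% with 200 bp sites. Only 118 of 917 pairs (12.9%) differ less than 2-fold in length, which limits the first of these. They were 5.14% and 15.9% with gaps up to 500 bp, 3.80% and 12.5% in the higher-scoring 50% of each list, 6.04% and 5.84% with lists of equal length, and 4.36% and 15.8% with the lowest score raised by 1 step. Without sites next to long empty stretches and chromosome Y the T47D share was 5.49%, with merging within 500 bp 5.18%, and without chromosomes 3, 8, 10 and 11 the PR-deficient share was 15.8%. With T47D sites over 400 bp alone the shares were 18.0% and 6.16%. Deciles gave 6.30% for the lowest T47D and 36.9% for the highest PR-deficient scores. Quintiles of length gave 12.9% and 0.832% in T47D and 19.4% and 10.7% in PR-deficient cells for the longest and shortest sites. The cause of these moves was not tested. Shared sites had the larger share in 8 lists (T47D) and 7 lists (PR-deficient) under every setting run for that count, though for PR with E2 the difference was only 0.04 and 0.10 percentage points with the lowest score raised by 1 step. The differences in share between shared and unshared sites, 1 for each of 16 pairs of class and list, were set against a range around the reported difference. That range took the exact interval of the shared share and held the unshared share fixed, so it is not an interval of the difference. Of the values, 79 lay within it, 49 outside it and 0 had the opposite sign. The motif and gene-list settings were not run. Unknown depth limits every count of sites.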
